A study of Mus musculus with 8 samples.

Results

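The 44 axon guidance genes described here encode 25 ligands (15 semaphorins, 3 slits, 2 netrins and 5 ephrins) and 19 receptors (6 plexins, 2 neuropilins, 2 Robo receptors, 2 netrin receptors and 7 Eph receptors). They were named gene by gene, with earlier results of these data known, and do not cover their families. A further 32 genes of these families are counted separately. The chromatin loops of a gene were those with an anchor within 2 kb of an annotated transcript start of the gene. Of the 249200 distinct loops in all lists, 1410 belonged to these genes, against 181129 with an anchor at the start of any gene. A loop was found for 37 of the 44 genes.

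The data were Hi-ChIP, in which contacts between distant DNA fragments are captured and those carrying a chosen protein are pulled down. FOXA1, a forkhead pioneer factor, and HNF4G, an orphan nuclear receptor, were each profiled in a mouse pancreatic cancer cell line from a primary KPC tumour and in the isogenic line from a liver metastasis (liver mets). All 8 samples, 2 replicates in each of the 4 groups, came from untreated cells labelled WT and grown in DMEM with 10% FBS, where WT is the label's word and KPC names a mouse model of pancreatic cancer. The question was whether contacts held by FOXA1 or by HNF4G are placed differently in the metastatic line. Each disease state is represented by 1 derived line, and 1 loop list covered both replicates of a group, so no spread between replicates and no test between groups could be had.

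Axon guidance cues steer growing neurons. Semaphorins are secreted or membrane-bound ligands that signal through plexins, with neuropilins as co-receptors for the secreted class. Netrins signal through DCC and UNC5 receptors, slits through Robo receptors, and ephrins through Eph receptor tyrosine kinases, where the ephrin-bearing cell can also receive a signal. Outside the nervous system the same families act in epithelial boundaries, blood vessel growth and cell migration, and genes of this pathway are known to be altered in pancreatic cancer.

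The FOXA1 tumour list held 104136 loops, FOXA1 liver mets 125623, HNF4G tumour 76323 and HNF4G liver mets 78098. The read depth behind them is unknown. Counts are therefore compared as shares of a list, and every 95% interval covers counting error only and treats loops as independent. Markers of cell types were checked at promoters: 8 of 8 ductal and epithelial markers had loops, with 184 to 312 loops per list. Of all protein-coding genes, 49.7% had a loop. Alb, Ttr and Serpina1a had none in any list, and Apoa1, the remaining hepatocyte marker, had between 1 and 6. Endothelial markers had none, 2 of 4 neuronal and 2 of 4 fibroblast markers had some, and the part of other cells in the lists was not tested. A loop at a promoter does not measure expression.

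The genes with loops fell into a steep order. Ephb3, Plxna1, Epha2, Sema3f and Plxnd1 had the most, while 7 genes had no anchor at any start. Between those ends, 35 of the 44 genes had a loop in every list and 19 had at least 10 loops in every list. The same shares over all genes are not given here. The median gene with a loop had 49 loops summed over the 4 lists, against 23 over all 15476 genes with a loop. Those are genes of any type, of which 10802 are protein-coding. Protein-coding genes as a whole had a loop in 49.7% of cases, against 84.1% of the 44 genes. Of the 32 further genes of the same families 34.4% had a loop, which makes 63.2% of the 76 together. The 76 thus lay above the share of protein-coding genes, by less than the 44 named genes, and the 32 further genes lay below it. Anchors at these genes were also wider, with a median of 3164 bp over 57 anchors against 2479 bp over all promoter anchors, and the part of anchor width and number in the counts was not tested. A start of another gene lay within 2 kb of 12 of the 57 anchors, so those loops belong to both genes.

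**Figure D1:**
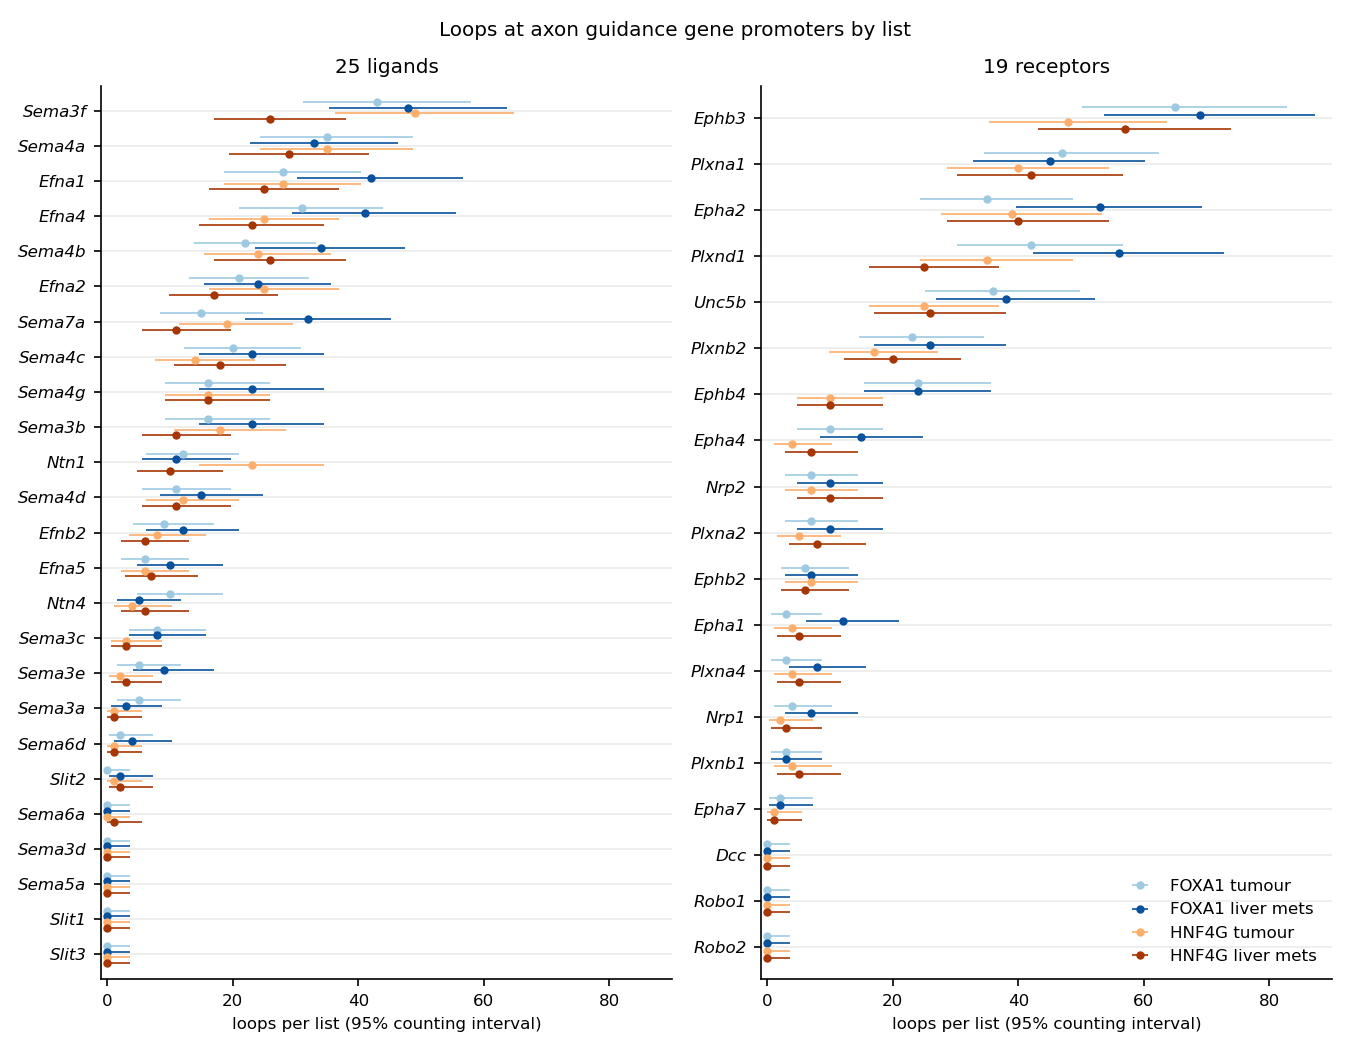
Number of loops per list at each of the 25 ligand genes and 19 receptor genes, ordered by the sum over lists. Points are counts and bars are exact Poisson 95% intervals. Ephb3 (48 to 69 loops per list) lies at the top of the receptors and Sema3f (26 to 49) at the top of the ligands, and the intervals of neighbours in either order overlap.

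Ephb3 encodes an Eph receptor tyrosine kinase that binds B-class ephrins. It had 65 loops in FOXA1 tumour, 69 in FOXA1 liver mets, 48 in HNF4G tumour and 57 in HNF4G liver mets. This sum exceeded that of 99.6% of all genes of any type with a loop. The count came from 4 anchors along the gene. When only the 5′ end of the gene record was used, 27, 31, 21 and 23 loops were left, and Efna1, with 123 loops at its single anchor, had the larger sum. The gene lies on the plus strand at chr16:21204755-21223305 of GRCm38. The 250 bases before its RefSeq start, chr16:21204795, lie in an anchor used in all 4 lists. They are printed below with those of Epha2 and Sema7a because these are the starts whose loops are followed in detail. The RefSeq starts of Ephb3 and Epha2 differ from the starts of their gene records, and the Ephb3 window runs into the gene record. Sequences are from the RefSeq promoter table on GRCm38, 5′ to 3′ on the gene's strand, with CG pairs in capitals.
Ephb3, chr16:21204545-21204794, plus strand: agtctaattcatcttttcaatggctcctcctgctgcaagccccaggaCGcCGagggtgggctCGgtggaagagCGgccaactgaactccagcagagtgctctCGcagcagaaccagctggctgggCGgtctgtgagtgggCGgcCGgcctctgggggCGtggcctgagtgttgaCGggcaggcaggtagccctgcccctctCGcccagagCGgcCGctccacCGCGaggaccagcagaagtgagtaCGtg
Epha2, chr4:141300971-141301220, plus strand: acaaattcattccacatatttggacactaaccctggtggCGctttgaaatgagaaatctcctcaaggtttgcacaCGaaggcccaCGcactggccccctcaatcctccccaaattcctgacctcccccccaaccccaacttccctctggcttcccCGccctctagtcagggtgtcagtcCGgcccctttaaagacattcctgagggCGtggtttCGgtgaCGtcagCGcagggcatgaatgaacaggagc
Sema7a, chr9:57939862-57940111, plus strand: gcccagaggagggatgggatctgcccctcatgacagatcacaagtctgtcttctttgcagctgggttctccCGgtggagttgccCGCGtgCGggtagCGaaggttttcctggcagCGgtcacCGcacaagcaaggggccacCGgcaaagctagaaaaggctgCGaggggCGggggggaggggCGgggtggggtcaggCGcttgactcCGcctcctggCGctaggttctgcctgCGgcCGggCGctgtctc
The Ephb3 window held 16 CG pairs and the Sema7a window 17, against a median of 6 over 32851 promoters of all genes. The Epha2 window held 9. Over the 42 promoter windows of genes with a loop the median was 16, and over the 7 windows of genes without a loop it was 11.

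Most loops of Ephb3 pointed downstream. Partners lay upstream of the gene start in 14 of 65 loops in FOXA1 tumour, 14 of 69 in FOXA1 liver mets, 12 of 48 in HNF4G tumour and 12 of 57 in HNF4G liver mets. The partner used most often was an anchor outside any gene, 135.0 kb downstream at chr16:21338239-21341282, which the 4 Ephb3 anchors reached 3, 3, 3 and 4 times in the lists in the order given above. The single loop with the highest summed value joined chr16:21210086-21211933 to that anchor over 128.8 kb. Its deposited value, read as the −log10 of an adjusted p, was 2.23 in FOXA1 tumour, 8.16 in HNF4G tumour and 2.69 in HNF4G liver mets, and the loop was not listed in FOXA1 liver mets. A second loop, over 214.5 kb to another anchor outside any gene, was in all 4 lists with values of 1.66, 4.58, 3.26 and 1.81. The longest loop found in more than 1 list spanned 658.5 kb to an intron of Map3k13 and was held by both FOXA1 lists.

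Plxna1, a plexin that receives class 3 semaphorin signals together with neuropilins, had 47, 45, 40 and 42 loops in FOXA1 tumour, FOXA1 liver mets, HNF4G tumour and HNF4G liver mets, the most even counts among the 5 genes with the most loops. Its loops spanned a median of 337.4 kb. The loop with its highest summed value reached an intron of Chchd6, 96.4 kb upstream, in all 4 lists, with values of 1.91, 2.02, 1.99 and 5.06. A loop of 398.5 kb to an intron of 4933427D06Rik, with a value of 10.7, was in FOXA1 liver mets alone. Its longest loop in more than 1 list reached the promoter of Iqsec1 over 1624 kb in both tumour lists.

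Epha2, the Eph receptor for A-class ephrins best known in epithelia, held more loops with a value of 4 or more than any other of the genes in each list. It had 35 loops in FOXA1 tumour, 53 in FOXA1 liver mets, 39 in HNF4G tumour and 40 in HNF4G liver mets, and 17 of its 77 distinct loops were in all 4 lists. The loop from its anchor at chr4:141305556-141315355 to a promoter anchor of the gene model Gm13056, 31.8 kb upstream, had the ceiling value of 20 in every list. The second Epha2 anchor reached the same partner over 23.1 kb with values of 11.2, 20, 20 and 8.21. The pair of Epha2 anchors was itself joined over 8.73 kb, with values of 11.4, 20, 12.8 and 8.64. The ceiling was also reached at Efna5 in FOXA1 tumour, at Plxnd1 in HNF4G tumour and at Sema3c in FOXA1 liver mets. Epha2 loops with a value of 4 or more numbered 7, 7, 6 and 5 in the lists, and only Epha2, Efna5, Ephb3 and Plxnd1 had such a loop in all 4. Not all of these were short contacts. Both anchors reached a region 168.5 kb upstream of the gene start in every list. Values there reached 6.52 in FOXA1 tumour and 4.86 in HNF4G tumour, and stayed below 4 in both liver mets lists. In FOXA1 liver mets the anchor at chr4:141305556-141315355 also reached partners 259.6 and 271.4 kb downstream, with values of 20 and 4.72. The 259.6 kb contact of this anchor had 3.29 in HNF4G tumour and 1.86 in HNF4G liver mets, and was not listed in FOXA1 tumour. There the other Epha2 anchor reached the same partner with 1.72, and this anchor reached the 271.4 kb partner with 1.74. The longest loop held by more than 1 list ran 662.4 kb to an exon of Fhad1 in both liver mets lists.

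**Figure D2:**
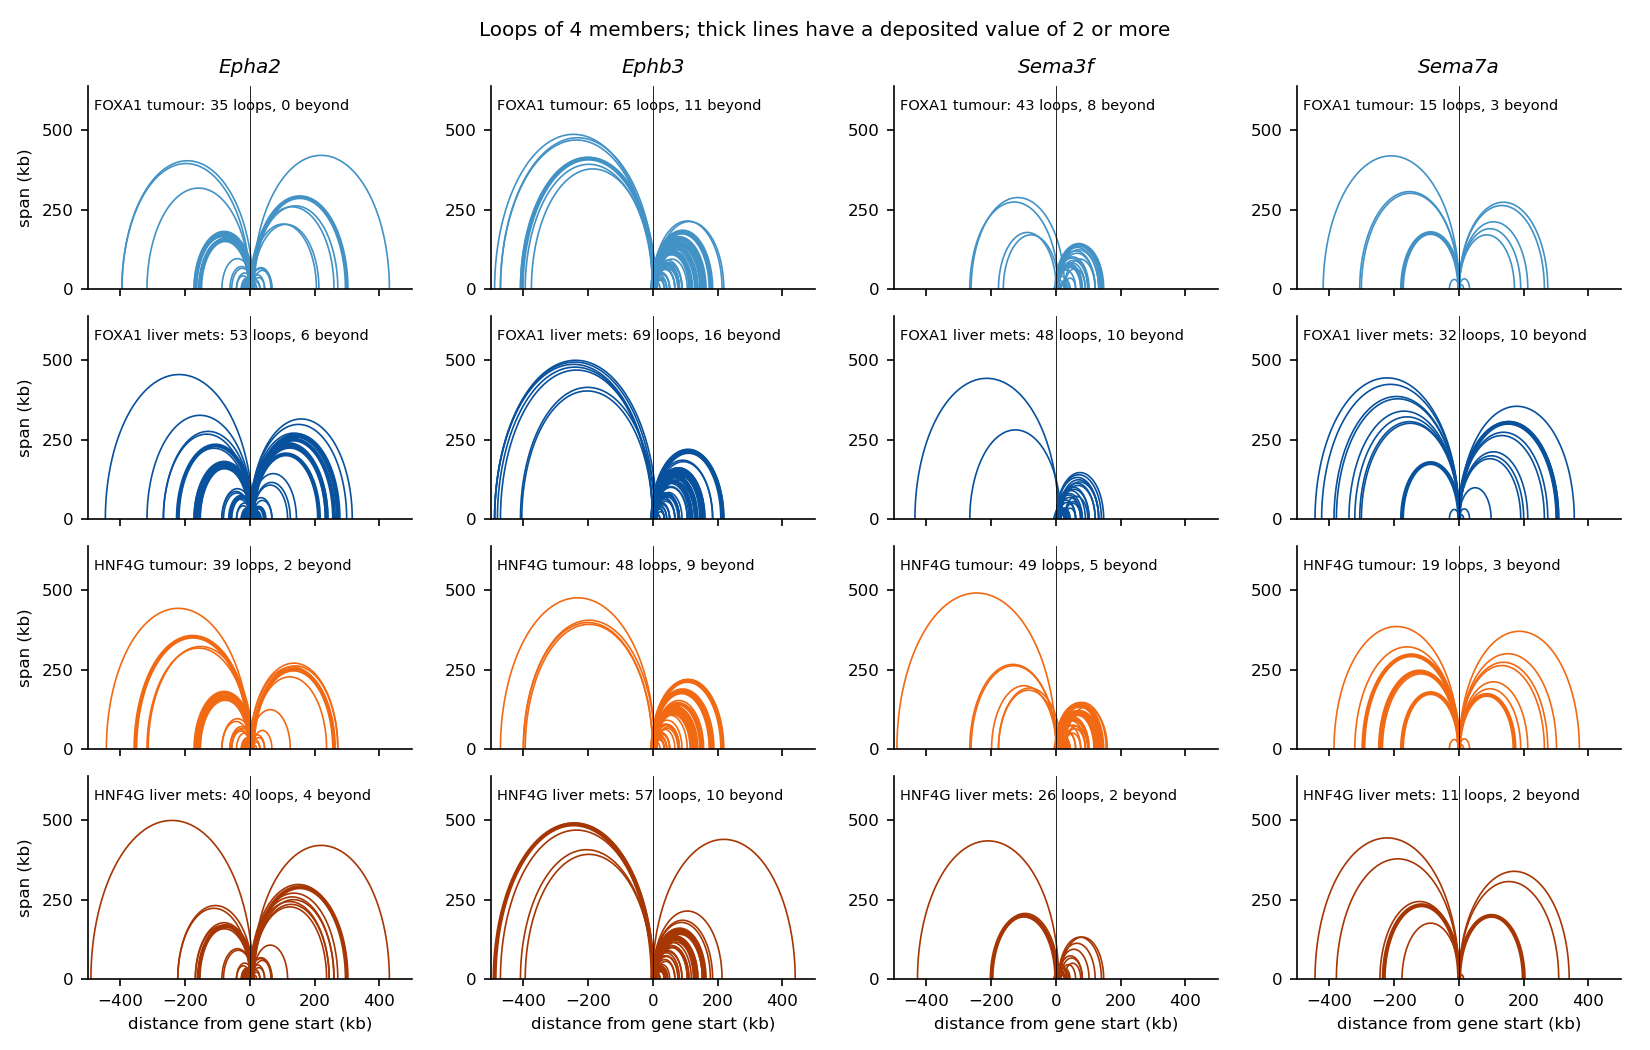
Loops of Epha2, Ephb3, Sema3f and Sema7a in each list, drawn as arcs against distance from the gene start in kb along the gene's strand, with arc height equal to span. Thick arcs have a value of 2 or more, and loops reaching past 500 kb are counted in each panel but not drawn. Ephb3 loops lie mostly downstream in all 4 lists, and the downstream arcs of Sema3f are fewest in HNF4G liver mets.

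Plxnd1, the receptor for semaphorin 3E in vessels, had 42, 56, 35 and 25 loops in the same order of lists. The HNF4G lists gave 25 loops in liver mets against 35 in tumour, a ratio of shares of 0.698 (0.401 to 1.20). A pair of its own anchors was joined over 21.7 kb with values of 1.69 and 5.91 in the FOXA1 lists and 20 and 12.4 in the HNF4G lists. Its loop to the promoter anchor of Ift122 and Mbd4, 118.3 kb downstream, had values of 1.93, 3.61, 3.90 and 6.09. Unc5b, a netrin receptor of the UNC5 class, had 36, 38, 25 and 26 loops, and 11 of its 68 distinct loops were in all lists. It reached an anchor outside any gene 246.9 kb upstream in all 4 lists and the Sgpl1 promoter 330.2 kb upstream in 3. The longest loops of both genes in more than 1 list joined Plxnd1 to the Hnrnpf promoter over 1914 kb and Unc5b to the Tspan15 promoter over 1375 kb, each in both tumour lists. Plxnb2, a receptor of class 4 semaphorins, had 23, 26, 17 and 20 loops at 1 anchor, and only 8 of its 35 distinct loops were confined to 1 list.

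Among the ligands Sema3f, a secreted semaphorin that binds neuropilin 2, led the order with 43 loops in FOXA1 tumour, 48 in FOXA1 liver mets, 49 in HNF4G tumour and 26 in HNF4G liver mets. By count HNF4G liver mets was the low list and the others lay close together. As shares of lists of unequal length they did not, with FOXA1 over HNF4G at 0.643 (0.417 to 0.989) in the tumour line. Sema4a, a membrane semaphorin, had 35, 33, 35 and 29 loops. Efna1 had 28, 42, 28 and 25, and Efna4 had 31, 41, 25 and 23. Both are membrane-anchored ephrins, and both had their highest count in FOXA1 liver mets, the longest list. As ratios of shares, FOXA1 in liver mets over tumour was 1.24 (0.753 to 2.08) for Efna1 and 1.10 (0.671 to 1.81) for Efna4. Sema4b had 22, 34, 24 and 26 loops, Efna2 had 21, 24, 25 and 17, and Sema4c had 20, 23, 14 and 18. The Efna2 anchor lay within 2 kb of the start without holding it, and Efna2 had no loops when the start had to lie inside the anchor. Sema7a, a GPI-anchored semaphorin, had 15, 32, 19 and 11. Over all 44 genes, 22 had their single highest count in FOXA1 liver mets, which is also the longest list. The share of all genes highest in that list is not given here, so the count is not read as a trait of these genes.

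The 7 genes with no anchor at a start were Sema3d, Sema5a, Slit1, Slit3, Robo1, Robo2 and Dcc. For Sema3d and Slit1 the nearest anchor was 7.03 kb and 7.32 kb from a start, and 7 anchors lay in the body of Slit1. The distance was 156.3 kb for Sema5a and 224.0 kb for Slit3. Dcc, Robo2 and Robo1 lay farthest, 1220, 1305 and 2711 kb from any anchor. Robo receptors thus had 0 loops in every list, a count that allows up to 3.69 loops by the exact Poisson interval, and the slit ligands had 0, 2, 1 and 2, all at Slit2. The netrin receptor Dcc had none, while the netrin receptor Unc5b was among the 8 genes with the most loops. A further 4 genes had between 1 and 9 loops in all lists together, namely Slit2, Sema6a, Sema6d and Epha7.

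Summed over the 44 genes, liver mets and tumour differed little for either factor once list length was taken into account. There were 628 loops in FOXA1 tumour and 781 in FOXA1 liver mets, 0.603% and 0.622% of their lists, a ratio of shares of 1.03 (0.927 to 1.15). The undivided counts gave 1.24 (1.12 to 1.38), beside 1.21 for the whole lists. HNF4G had 559 loops in tumour and 521 in liver mets, 0.732% and 0.667% of their lists, a ratio of 0.911 (0.807 to 1.03). For HNF4G, ligands had 307 loops in tumour and 251 in liver mets (ratio of shares 0.799, 0.674 to 0.947), whereas receptors had 252 and 270 (1.05, 0.879 to 1.25). Without Sema3f and Ntn1, an alternative chosen after their values were seen, the ligand ratio was 0.880 (0.728 to 1.06) and its interval included 1. The intervals of ligands and receptors overlap, and the difference between them was not tested. All loops with a promoter anchor gave 0.965 (0.954 to 0.976) in that comparison. By family, the HNF4G counts in tumour and liver mets were 189 and 156 for semaphorins, 91 and 77 for ephrins and 27 and 16 for netrins. They were 105 and 105 for plexins and 113 and 126 for Eph receptors, so the counts of these 3 ligand families were all lower in liver mets. Intervals of the single families all included 1, with semaphorins at 0.807 (0.648 to 1.002).

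Between factors, the share of the list at axon guidance genes was lower for FOXA1. In the tumour line the ratio of shares, FOXA1 over HNF4G, was 0.823 (0.734 to 0.924), against 0.949 (0.939 to 0.959) for all loops with a promoter anchor. It was 0.743 (0.632 to 0.872) for ligands and 0.922 (0.779 to 1.09) for receptors. The undivided counts turn the direction, at 1.12 (1.001 to 1.26), since the FOXA1 list is the longer one. In the liver mets line the ratio was 0.932 (0.833 to 1.04), against 0.967 for all loops with a promoter anchor, and the undivided counts were again on the other side of 1, at 1.5 (1.34 to 1.68).

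Gene by gene, a difference was counted when the ratio of shares, with 0.5 added to each count, was at least 1.5-fold, among genes with at least 10 loops in the compared lists. For FOXA1 in liver mets over tumour, 3 of 31 genes were past this fold upward (background over all genes 10.9%) and 1 downward (13.8%). Epha1, an Eph receptor, had 12 loops against 3 (ratio 3.32, 0.895 to 18.3). Plxna4 had 8 against 3 (2.21, 0.531 to 12.9), and Sema7a had 32 against 15 (1.77, 0.930 to 3.51). Ntn4, a netrin of basement membranes, had 5 against 10 (0.415, 0.111 to 1.33). For HNF4G, 2 of 26 genes were past the fold upward (background 12.3%) and 4 downward (16.3%). Epha4 and Plxna2 were the upward ones, with 7 against 4 and 8 against 5 loops. Ntn1, Sema3f, Sema7a and Sema3b were the downward ones, and the counts of Sema3f and Sema3b are not independent. Except for the downward FOXA1 count, which was smaller, these counts lay near what all genes gave, and the median ratio was 1.10 for FOXA1 and 0.977 for HNF4G, against 0.962 and 0.977 over all genes.

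**Figure D3:**
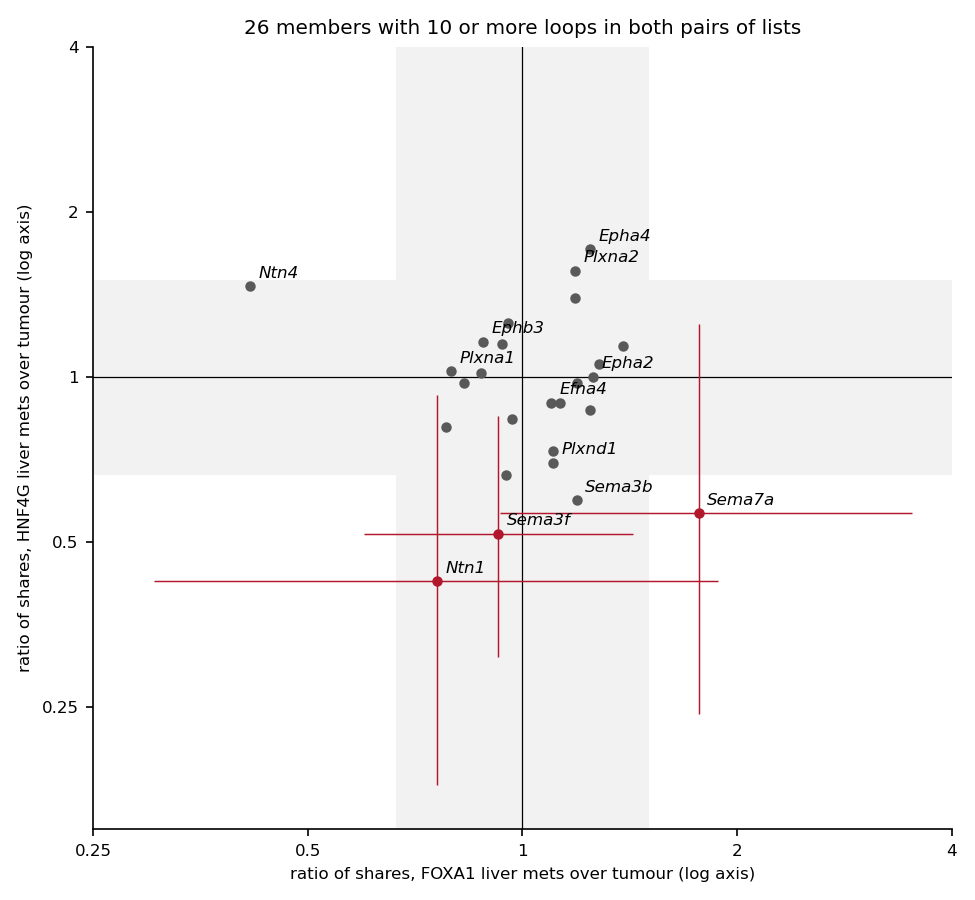
Ratio of shares, liver mets over tumour, for FOXA1 (horizontal) and HNF4G (vertical), both on log axes, for the 26 genes with at least 10 loops in both pairs of lists. Grey bands mark ratios within 1.5-fold, and bars on Sema3f, Ntn1 and Sema7a are 95% intervals of counting error. Sema3f and Ntn1 lie below the HNF4G band with intervals that leave out 1, and Sema7a lies on opposite sides for the 2 factors with intervals that include 1.

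For FOXA1 over HNF4G in the tumour line, 4 of 27 genes were past the fold upward (background 14%) and 7 downward (20.3%). Sema3c had 8 loops against 3, Ntn4 10 against 4 and Epha4 10 against 4. The largest downward ratios were those of Ntn1 (12 against 23), Sema7a (15 against 19) and Efna2 (21 against 25). The median ratio of the counted genes was 0.733, against 0.922 over all genes. In the liver mets line, 3 of 31 genes were past the fold upward (background 12.7%) and 3 downward (18.5%). Sema7a had 32 against 11 loops, Sema3e 9 against 3 and Sema3c 8 against 3. The downward genes were Ntn4 (5 against 6), Nrp2 (10 against 10) and Plxna1 (45 against 42), whose counts are close in lists of unequal length. Of the 115 ratios counted over the 4 comparisons, 4 had intervals that left out 1, and all 4 belonged to Sema3f and Ntn1. That is 3.48% of ratios, against 2.30% over all genes. By comparison, the share over all genes was 1.39% for FOXA1 in liver mets over tumour, where none of the 31 genes was among them, and 2.06% for HNF4G, where 2 of 26 were. It was 3.88% for FOXA1 over HNF4G in the tumour line, where 2 of 27 were, and 1.99% in the liver mets line, where none of 31 was. Such low counts do not set these genes apart from others, and Sema3f, Ntn1 and Sema7a are described below as loci and not as established differences.

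At Sema3f, HNF4G gave 49 loops in tumour and 26 in liver mets, a ratio of shares of 0.519 (0.309 to 0.851). FOXA1 gave 43 and 48 (0.925, 0.600 to 1.43). In the tumour line FOXA1 over HNF4G was 0.643 (0.417 to 0.989). The gene lies on the minus strand at chr9:107681500-107710475 and had 4 anchors. The upstream one, chr9:107707249-107711246, carried 22 HNF4G loops in tumour and 5 in liver mets, and the FOXA1 lists had 16 and 17 there. At this anchor, the 5′ end of the gene record, the HNF4G ratio was 0.222 (0.0657 to 0.601). The HNF4G counts at the other 3 anchors lay closer together, at 13 and 11, 9 and 8, and 10 and 7 loops. Long loops of 100 kb or more numbered 22 in HNF4G tumour and 8 in HNF4G liver mets, and those under 100 kb numbered 27 and 18. Partner anchors present in HNF4G tumour but not in HNF4G liver mets numbered 13, of which 11 were promoters, and 11 partners were in both. Loops within 500 kb that did not touch a Sema3f anchor numbered 81 and 69 in the HNF4G lists, a ratio of 0.833 (0.595 to 1.16).

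Sema3b, a related secreted semaphorin, lies beside Sema3f on chromosome 9. It had 16, 23, 18 and 11 loops, with an HNF4G ratio of 0.597 (0.255 to 1.34), and loops around it gave 0.705 (0.511 to 0.969). Loops around a gene leave out only its own, so those around Sema3b can include loops of Sema3f, and the reverse. The values around each gene are therefore not separate from the counts of the other. The genes shared 20 partner anchors, 74.1% of those of Sema3b and 46.5% of those of Sema3f, and 5 distinct loops joined them directly over 71.8 to 101.3 kb. Their counts are thus not independent. Only 1 of these 5 loops was listed in HNF4G liver mets, over 94.0 kb, whereas all 5 were listed in HNF4G tumour.

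Netrin 1, encoded by Ntn1, is the founding secreted netrin. It had 12 loops in FOXA1 tumour, 11 in FOXA1 liver mets, 23 in HNF4G tumour and 10 in HNF4G liver mets, so that HNF4G tumour alone was high. The HNF4G ratio of shares was 0.425 (0.181 to 0.928) and FOXA1 over HNF4G in the tumour line was 0.382 (0.173 to 0.801). The difference was at the anchor chr11:68385468-68388949, with 18 HNF4G loops in tumour and 5 in liver mets, while the anchor at chr11:68399429-68400885, which holds the 5′ end of the gene record, had 6 in both. At that start alone the HNF4G ratio of shares was 0.977 (0.261 to 3.66). Of the 23 HNF4G tumour loops, 15 were in no other list. Loops around the gene numbered 10 and 15 in the HNF4G lists, a ratio of 1.47 (0.616 to 3.65), on the other side of 1.

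Sema7a moved past the fold in opposite directions for the 2 factors. FOXA1 gave 15 loops in tumour and 32 in liver mets, and HNF4G gave 19 and 11 (ratio of shares 0.566, 0.243 to 1.25). Both intervals include 1 and the difference between factors was not tested. All these loops came from 1 anchor, chr9:57938152-57944189. Of the 32 FOXA1 liver mets loops, 15 were in no other list and 28 were of 100 kb or more. The FOXA1 lists shared 10 partners, and 22 were found in liver mets but not in tumour. The loop to the promoter of Clk3, 175.3 kb upstream, was in all 4 lists. Loops around Sema7a went the other way for FOXA1, 125 in tumour and 114 in liver mets (0.756, 0.581 to 0.982), and were 91 and 91 for HNF4G.

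Loops of these genes recurred across lists more often than promoter loops in general. Of the 1410 distinct loops, 134 (9.50%, Wilson interval 8.08 to 11.2) were in all 4 lists, against 5.54% of all distinct loops with a promoter anchor. Loops in a single list made up 56.2% (53.6 to 58.7), against 65.7%. Epha2 contributed 17 of the 134, Unc5b and Efna1 11 each. Of the FOXA1 liver mets loops 42.4% were also in FOXA1 tumour, against 34.2% of all promoter loops, and of the HNF4G liver mets loops 44.1% were also in HNF4G tumour, against 34.1%. The loops also had higher values: 11.1% to 13.3% of a list's loops at these genes had a value of 2 or more, against 7.80% to 9.57% of all promoter loops. Whether wide anchors account for this was not tested. The 44 genes were chosen with earlier results of these data known, so these contrasts describe the named genes only.

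**Figure D4:**
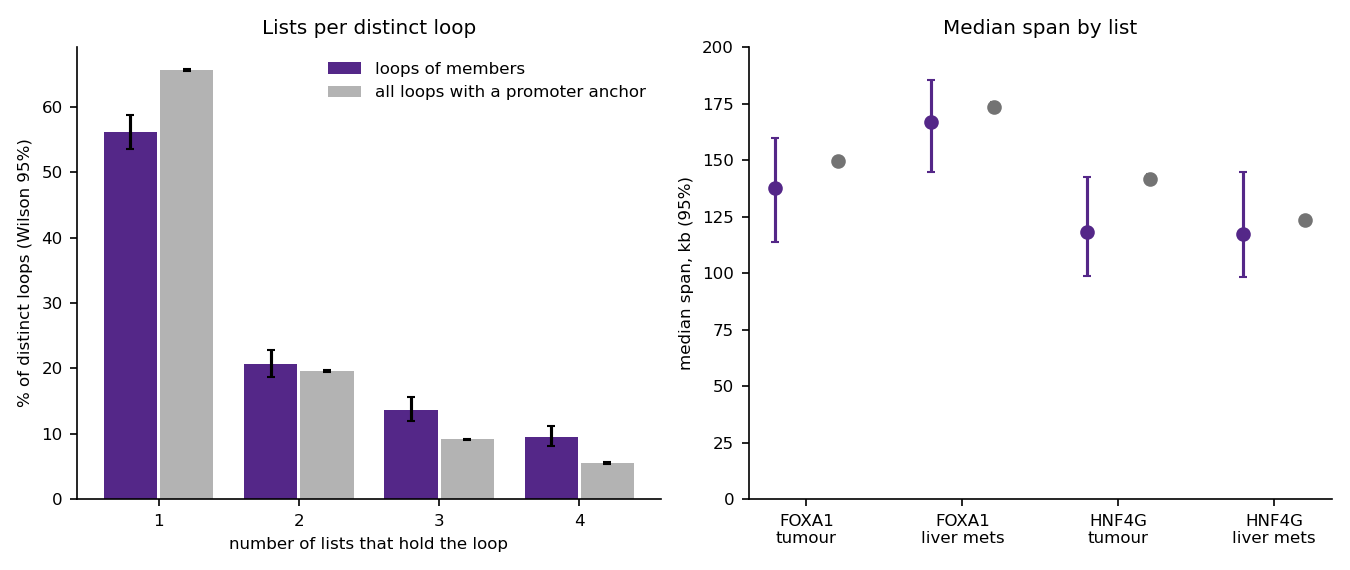
Left, the percentage of distinct loops held by 1, 2, 3 or 4 lists, for axon guidance genes and for all loops with a promoter anchor, with Wilson 95% intervals. Right, the median span in kb in each list with 95% order-statistic intervals, which are narrower than the points for all promoter loops. Loops in all 4 lists make up 9.50% and 5.54%, and both sets have their longest median in FOXA1 liver mets.

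The median span of loops at these genes was 137.5 kb (113.6 to 159.7) in FOXA1 tumour and 166.6 kb (144.5 to 185.5) in FOXA1 liver mets. It was 118.3 kb (98.9 to 142.4) in HNF4G tumour and 117.1 kb (98.0 to 144.8) in HNF4G liver mets. The medians of all promoter loops were 149.6, 173.6, 141.6 and 123.4 kb. Loops of 100 kb or more made up 57.2, 61.7, 53.7 and 53.6% of the lists in that order, against 60.3, 63.8, 58.7 and 55.3% of all promoter loops. Loops of 500 kb or more at these genes numbered 105 in FOXA1 tumour and 178 in FOXA1 liver mets, a ratio of shares of 1.41 (1.10 to 1.81). All promoter loops gave 1.14 (1.11 to 1.16), inside that interval. This was the longest of several span classes. In the shorter ones the FOXA1 ratios lay between 0.865 and 1.04, with intervals that include 1. For HNF4G they numbered 96 and 86 (0.876, 0.647 to 1.18). Spans differed widely by gene, from a median of 45.7 kb at Sema4b to 337.4 kb at Plxna1 among the 14 genes with the most loops.

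The far end of a loop was a promoter about as often as for promoters in general, or somewhat less often. Over distinct loops, 50.9% of partners were promoters of genes outside the list and 2.34% were anchors of axon guidance genes, 53.2% (50.6 to 55.8) together. Seen from a promoter end, with a loop that joins promoters counted once from each, the share over all distinct promoter loops was 55.8%. The 33 loops with an axon guidance gene at both ends were counted only once, so the counting is not identical. By list the shares were 54.8, 51.9, 55.8 and 51.4%, against 55.9, 54.7, 59.1 and 57.1%, in the order of lists used above. Introns made up 15.7% of partners, exons 9.08% and anchors outside any gene 22.1%. Efna1 gives an example, since both of its loops with the highest summed value reached promoters, that of Slc50a1 over 8.61 kb and the shared anchor of Mtx1, Muc1 and Thbs3 over 49.3 kb, each in all 4 lists. At Sema4a the 2 highest loops reached the promoters of Mef2d and Arhgef2, over 314.7 and 180.4 kb. The longest loop in more than 1 list reached the Tpm3 promoter at 801.7 kb for Efna1, an exon of Iqgap3 at 342.7 kb for Sema4a and the Dusp7 promoter at 1339 kb for Sema3f.

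Axon guidance genes were also joined to each other. Of 33 distinct loops with such a gene at both ends, 24 joined anchors of 1 gene and 9 joined different genes. The 6 with the highest summed values were all of the first kind, at Epha2, Plxnd1 (21.7 and 9.91 kb), Sema3f (7.29 kb), Unc5b (15.4 kb) and Ntn1 (12.9 kb). Efna1 and Efna4, neighbouring ephrins on chromosome 3, were joined over 58.3 kb in all 4 lists with values of 0.444, 0.703, 1.17 and 0.146. They shared 38 partners, 60.3% of those of Efna1 and 64.4% of those of Efna4. Sema4a, on the same chromosome, shared 32 partners with Efna1 and was joined to Efna4 by 2 loops of 880.7 and 896.0 kb, each in 1 list. Sema3a and Sema3e were joined over 625.8 kb in FOXA1 liver mets. The ligand counts on chromosome 3 and on chromosome 9 are therefore partly counts of the same regions.

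Other genes of the pathway were read the same way. Among 32 further ligands and receptors of these families, 11 had a loop, and among 44 intracellular signalling partners, 36 did. Efna3, which lies between Efna1 and Efna4, had 20, 26, 43 and 22 loops, an HNF4G ratio of 0.50 (0.285 to 0.855). It was the single further family gene past the fold in that comparison, where 6 were counted (background 12.3% upward and 16.3% downward). FOXA1 over HNF4G at Efna3 in the tumour line was 0.341 (0.190 to 0.592). For FOXA1 in liver mets over tumour, none of the 7 counted family genes was past the fold (background 10.9% upward and 13.8% downward). Among intracellular partners 3 of 32 were past the fold upward (background 10.9%) and 1 downward (13.8%) for FOXA1. For HNF4G 4 of 31 were past it upward (12.3%) and 5 downward (16.3%). Neo1, a netrin receptor related to DCC, had 16, 18, 6 and 5 loops, and FOXA1 over HNF4G was 1.95 (0.726 to 6.10) in the tumour line and 2.24 (0.801 to 7.71) in the liver mets line. Vav3, a guanine nucleotide exchange factor, had the largest FOXA1 ratio, with 10 loops against 3 (2.76, 0.712 to 15.6), and the lowest HNF4G ratio, with 2 against 8 (0.244, 0.0253 to 1.22).

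The letters of a forkhead site, TGTTTAC, and of an HNF4 site, CAAAGTCCA, were searched on both strands. Of 49 promoter windows of 250 bases, which were on hand for 36 of the genes, none held either, against 3.17% and 0.384% of 32851 windows over all genes. In the middle 1000 bases of the anchors, the forkhead letters were in 6 of 57 (10.5%, 4.91 to 21.1), against 15% of all promoter anchors. They were in 17.2% of partner anchors without a promoter, against 23.8% of all such anchors. The HNF4 letters were in 1 of 57, against 1.48% of all promoter anchors. Windows of 60 bases are shown for 1 Sema3f anchor, for distal partners of Ephb3 and Sema3f in loops found in all 4 lists, and for the Plxnd1 anchor, because these are loops described above. They are on the plus strand of GRCm38 with the matching letters in capitals, GTAAACA being the forkhead letters on the opposite strand.
Sema3f anchor, chr9:107694825-107694884: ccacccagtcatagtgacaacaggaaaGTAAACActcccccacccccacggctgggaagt
Sema3f partner at Hyal3 and Ifrd2, chr9:107588940-107588999: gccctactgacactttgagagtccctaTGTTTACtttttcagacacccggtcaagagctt
Ephb3 partner, chr16:21417945-21418004: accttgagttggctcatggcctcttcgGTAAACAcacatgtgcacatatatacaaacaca
Plxnd1 anchor with the HNF4 letters, chr6:115962067-115962126: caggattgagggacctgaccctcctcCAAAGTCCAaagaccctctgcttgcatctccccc
The Ephb3 partner is the far end of the 214.5 kb loop, and the Sema3f partner is reached over 112.8 kb from the anchor at chr9:107698212-107705698. A match of letters is a description of the sequence and not a bound site.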

How the data were processed

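FOXA1 and HNF4G Hi-ChIP was analysed in 8 mouse samples. The submitters' processing notes name HiC-Pro 3.1.0 and mm10. The study's methods give DpnII fragments, duplicate removal and loop calling with hichipper. The anchor source, the minimum of paired reads and how replicates were joined are not given in the sources used here. The authors deposited 1 loop list per group, with anchor coordinates and a value read as the −log10 of an adjusted p from its ties and its ceiling of 20 alone. The same value need not carry the same evidence in different lists. Depth is unknown, so its effect on loop numbers could not be measured.

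Loops were linked to genes by GENCODE M21 transcript starts on GRCm38, within 2 kb of an anchor. Coordinates count from 1. Spans run between anchor midpoints. Counts have exact Poisson intervals, ratios Clopper-Pearson intervals given the sum, shares Wilson intervals and medians order-statistic intervals, all at 95%. The partner share of all promoter loops was taken from each promoter end. No test was run, because each group has 1 list. A gene was counted with at least 10 loops in the 2 lists and past the fold at 1.5. Loops around a gene were those within 500 kb of its start that did not touch its anchors. The ratio code was tested on simulated data. Values in every list are given for the 14 genes with the most loops and for up to 3 genes per direction with the largest ratios among those past the fold. Named loops are, for the first 8, the 2 of highest summed value and the longest in more than 1 list. The locus accounts of Sema3f, Ntn1, Sema7a, Epha2 and Ephb3 were chosen after their values were seen. The genes and lists were chosen with earlier results of these data known. Alternatives were the start window, the gene record's 5′ end, a value of 2, a span of 20 kb, other divisors, another fold or minimum and widened anchors. Those for the ligand sum and for Sema3f, Ntn1 and Sema7a were chosen after seeing the data. Python 3.11.15, pandas 2.3.3, numpy 2.4.6, scipy 1.17.1 and pysam 0.24.0 were used.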

Additional observations from a re-analysis of the deposited data

Results flagged for a closer look

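Sema7a was the single gene of the 44 that passed the 1.5-fold limit in opposite directions for the 2 factors. With 0.5 added to each count, its ratio of shares in liver mets over tumour was 1.74 for FOXA1 and 0.576 for HNF4G. This contrast of FOXA1 with HNF4G was not tested, because each group has 1 loop list, and the 95% counting interval of each ratio includes 1. Counts and partners at this gene are given above.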

How the results depend on the processing

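No paired analysis was possible because each group has 1 loop list for both replicates, which also leaves no replicate to omit.

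Depth is unknown, and loop counts set the precision. Beside each count of genes past the fold stand the number counted and, as background, the share of all genes past it. Values are given in the order FOXA1 tumour, FOXA1 liver mets, HNF4G tumour, HNF4G liver mets. Without division by list size, the ratio over all 44 genes turned direction for FOXA1 over HNF4G, to 1.12 in the tumour line and 1.5 in the liver mets line, and was 1.24 for FOXA1 liver mets over tumour. The ligand ratio for FOXA1 over HNF4G in the tumour line turned to 1.01, and to 1.08 without Sema3f and Ntn1. Genes past the fold were then 8 of 31 upward for FOXA1 liver mets over tumour (background 22.4%), 1 of 27 downward for FOXA1 over HNF4G in the tumour line (6.30%), and 14 of 31 upward (48.8%) and 0 downward (2.23%) in the liver mets line. Division by promoter loops left 3 of 27 downward for FOXA1 over HNF4G in the tumour line (16.5%).

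With the start required inside the anchor, promoters were 42.9, 40.2, 43.2 and 41.8% of partners, and genes past the fold downward were 0 of 29 for FOXA1 liver mets over tumour (14.3%) and 1 of 29 for FOXA1 over HNF4G in the liver mets line (19.8%). Within 5 kb, promoters were 65.4, 64.7, 68.8 and 64.8%. With the gene record's 5′ end alone there were 907 distinct loops, 406 in FOXA1 tumour and 337 in HNF4G liver mets, promoters were 46.8, 43.3, 44.8 and 42.1%, and 5 of 29 genes were past the fold upward for FOXA1 over HNF4G in the liver mets line (12.7%).

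With a value of 2 or more there were 219 distinct loops, 70, 104, 63 and 60 per list and 6 in all 4. Genes past the fold, upward and downward, were 0 and 2 of 5 for FOXA1 liver mets over tumour (13.3 and 16.9%), 0 and 0 of 4 for HNF4G (15.4 and 21.1%), 0 and 2 of 4 for FOXA1 over HNF4G in the tumour line (9.98 and 28.8%), and 0 of 6 upward in the liver mets line (15.3%). The FOXA1 median spans were 176.8 and 205.5 kb, loops of 100 kb or more were 78.6, 75, 69.8 and 75%, and promoters were 50, 47.1 and 60.3% in the first 3 lists. With spans of 20 kb or more, 83 loops were in all 4 lists, medians were 171.0, 195.9, 153.4 and 157.4 kb, loops of 100 kb or more were 64.3, 68.1, 61.0 and 61.6%, and upward genes were 0 of 24 for HNF4G liver mets over tumour (13%) and 1 of 30 for FOXA1 over HNF4G in the liver mets line (12.8%).

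At a fold of 2, the upward and downward genes were 0 and 1 of 26 for HNF4G (5.0 and 5.59%), 0 and 1 of 27 for FOXA1 over HNF4G in the tumour line (4.75 and 6.63%) and 0 and 0 of 31 in the liver mets line (5.47 and 5.59%). With at least 20 loops they were 1 and 0 of 21 for FOXA1 liver mets over tumour (6.44 and 8.64%), 0 of 19 upward for HNF4G (6.26%), and for FOXA1 over HNF4G 1 of 19 upward in the tumour line (7.19%) and 1 of 21 in the liver mets line (6.65%). With anchors widened by 5 kb, 540 loops were in all 4 lists. The HNF4G ratio of all 25 ligands lay between 0.777 and 0.843 under the other start windows, value and span minimums and divisors, and with a value of 2 or more its interval included 1 (0.422 to 1.57). Without Sema3f and Ntn1 it was 0.880, with an interval that includes 1. Without both, and with a value of 2 or more, the ligand ratio was 1.22 for FOXA1 over HNF4G in the tumour line and 1.27 for HNF4G liver mets over tumour. The HNF4G ratio of Ntn1 was 0.977 at the gene record's 5′ end, and that of Sema3f lay between 0.198 and 0.604 in all alternatives. Beyond fewer loops or starts by construction, the cause was not tested.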
